A study of Mus musculus with 6 samples.

Results

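SHP-1 and SHP-2 are tyrosine phosphatases and SHIP is an inositol lipid phosphatase. Inhibitory receptors of myeloid cells, lymphocytes, endothelium and epithelium bring them to the plasma membrane. The transcripts of these 3 enzymes and of 7 inhibitory receptors were followed in kidneys after ischemia-reperfusion injury (IRI). The members were taken by symbol from the deposited expression table: *Ptpn6*, *Ptpn11*, *Inpp5d*, *Sirpa*, *Pirb*, *Lilrb4a*, *Ceacam1*, *Clec12a*, *Fcgr2b* and *Cd300a*. These 10 symbols occupied 11 of the 21367 rows, because *Lilrb4a* has 2 rows.

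The libraries came from the left kidneys of 3 Ptpn6+/mev mice and 3 wild-type littermates, all 7 weeks old and kept on a C57BL/6 background. Every mouse had lost the right kidney, had the left renal pedicle clamped for 34 min and was killed 24 h later, so kidneys of both genotypes were injured. Ptpn6+/mev mice are heterozygous for viable motheaten, a T-to-A change at a splice consensus site of *Ptpn6*, and carry it in every cell. The labels call this genotype an SHP1 knockdown. Poly-A mRNA of whole kidney was sequenced, with 1 library per mouse. A p-value below therefore measures the spread between mice of this cohort.

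In an immunoreceptor tyrosine-based inhibitory motif (ITIM), a tyrosine in the cytoplasmic tail is phosphorylated by Src-family kinases and then bound by the SH2 domains of SHP-1, SHP-2 or SHIP. The bound phosphatase removes phosphate from nearby signaling proteins or from membrane inositol lipids, and activation through ITAM-bearing partners (carrying the activating counterpart of the ITIM) is dampened. SHIP and most of these receptors are best known from macrophages, neutrophils and other blood cells. SHP-1 is found in blood cells and also in epithelium, tubular epithelium of the kidney included, SHP-2 in nearly every cell, and CEACAM1 also in epithelium and endothelium.

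The allele that separates the groups acts on splicing, so the place in *Ptpn6* that the genotyping primers bracket is shown first. The forward primer atcccaggctctgactacat lies in exon 8 and the reverse primer tgtatggtattgaacaaggacc lies in the intron after exon 9 of the main *Ptpn6* transcript, which has 15 exons. In the GENCODE M21 annotation of GRCm38 the product spans 436 bases, chr6:124727319-124727754 on the minus strand. It crosses the 181 bases of intron between exons 8 and 9 and extends 66 bases past exon 9 (chr6:124727385-124727534). A second, short annotated transcript reads through the end of exon 9 without splicing there. The reference sequence of that stretch, chr6:124727316-124727411 on the minus strand, holds the last 27 bases of exon 9 and the next 69 bases, with the GT of the splice donor in capitals:
*Ptpn6* exon 9 end: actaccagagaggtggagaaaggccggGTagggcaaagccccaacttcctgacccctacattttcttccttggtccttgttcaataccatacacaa
Which base the mev allele changes is not given in the sources used here. The study's methods place the changed site in the middle of the product without a position. The exact midpoint, chr6:124727536, lies 2 bases before exon 9, at its other end, but the middle need not mean that base. Whether the stretch shown holds the mev site is therefore not settled here, and it is given for the transcript that reads through. The deposited values are per gene, and a transcript spliced here and one that reads through add to the same *Ptpn6* value.

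The receptors share an amino acid pattern, the motif that recruits the phosphatases, and each encodes it in its own bases. Matches to the ITIM (isoleucine, valine, leucine or serine, any residue, tyrosine, any pair of residues, then isoleucine, valine or leucine) were sought in GENCODE M21 coding sequences translated by codon. For each receptor 1 match is given as 18 bases of reference coding sequence on the gene's own strand, with the tyrosine codon in capitals:
*Sirpa* (chr2:129630077-129630094, plus strand): ctcaccTATgctgacctg
*Pirb* (chr7:3712786-3712803, minus strand): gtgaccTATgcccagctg
*Lilrb4a* (chr10:51496194-51496211, plus strand): gtaaccTATgcccagttg
*Ceacam1* (chr7:25463874-25463891, minus strand): gtcgcaTACactgtcctg
*Clec12a* (chr6:129350433-129350450, plus strand): attgttTATgcaaatctc
*Fcgr2b* (chr1:170961071-170961088, minus strand): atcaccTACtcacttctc
*Cd300a* (chr11:114901147-114901164, plus strand): cttcacTATtcatccgtg
Each stretch lies within 1 exon. It is the last exon for 6 of the 7 receptors, and exon 1 of 6 for *Clec12a*, whose protein has its amino end inside the cell. Matches were counted in a fixed number of codons at the carboxyl end, or at the amino end for *Clec12a*. Where the tail begins was not located. In the transcripts read here, *Sirpa* and *Pirb* have 3 such matches, *Lilrb4a* and *Cd300a* have 2, and *Ceacam1*, *Clec12a* and *Fcgr2b* have 1. The match is carried by 2 of the 8 annotated coding transcripts of *Ceacam1* and 8 of 9 of *Sirpa*. For these genes the value per gene can mix forms with and without the motif. For *Lilrb4a* it is carried by 5 of 8, pooled over its 2 rows, so what either row mixes is not shown. A letter match is a description and was not tested as a docking site.

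The groups did not differ by more than the spread between mice in any of the 10 transcripts. Levels are given as FPKM (fragments scaled to transcript length and to library size), which allows genes to be compared per length. Fold changes come from edgeR's quasi-likelihood test on the counts of 13036 genes that passed its low-count filter, and FDR is the Benjamini-Hochberg adjusted p over all of them. Of the 11 rows, 10 were tested. At an FDR under 0.05 the test called 0 of the 10, against 0.138% of all tested genes, and the FDR of the members lay between 0.534 and 0.918. At an unadjusted p under 0.05 it also called 0, against 12.2% of all tested genes. Both edgeR's exact test and DESeq2 called 0 members at an FDR under 0.05, against 390 and 388 of all tested genes.

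By direction, 8 of the 10 transcripts were higher and 2 were lower in Ptpn6+/mev kidneys, while 49.5% of all tested genes were higher. The median log2 fold change of the 10 was 0.18, against -0.0024 for all tested genes. That lean depended in part on single libraries. Leaving out Ptpn6+/mev replicate 3 turned *Pirb* (-0.036) and *Cd300a* (-0.0089) below 0, beside *Ptpn6* and *Ceacam1*. Leaving out Ptpn6+/mev replicate 1 turned *Ceacam1* above 0 (0.024). Without wild-type replicate 2, 6 were higher and 4 lower, and the median was 0.020, against 0.0087 for all tested genes. In that fit 0 members passed an FDR under 0.05, against 1.77% of all tested genes, and the smallest member FDR was 0.212, for *Ptpn6*.

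**Figure D1:**
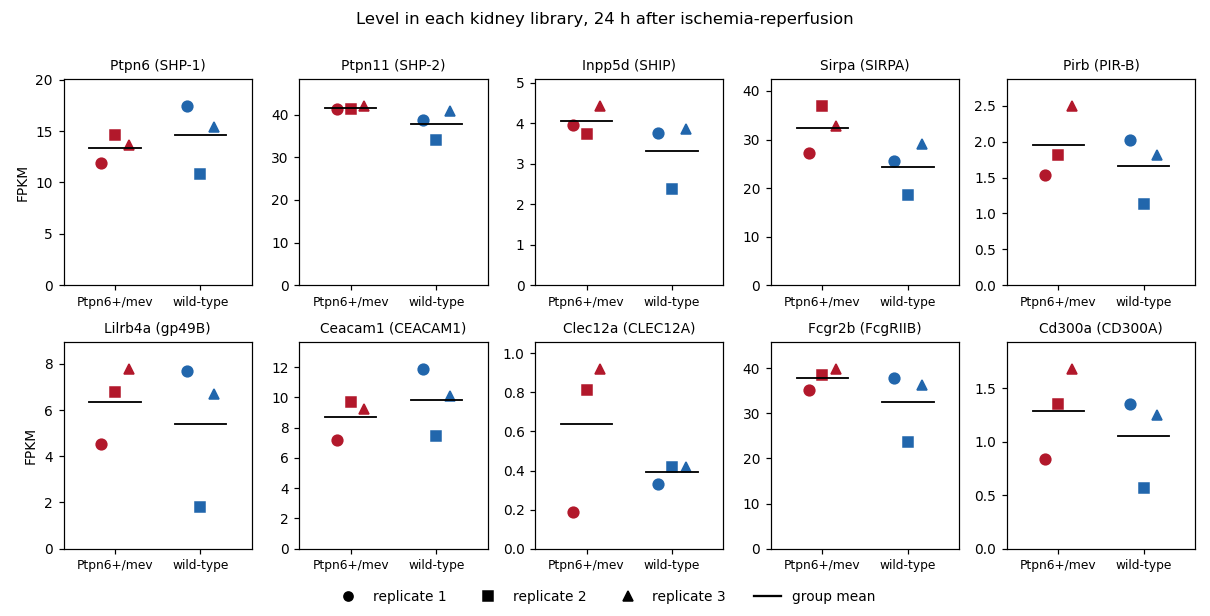
FPKM (vertical axis, from 0) of each of the 10 transcripts in the 3 Ptpn6+/mev and 3 wild-type libraries, with 1 symbol per replicate and a line at the group mean. The groups overlap for every gene except *Ptpn11*, and wild-type replicate 2 is the lowest of the 6 libraries for 8 of the 10.

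*Ptpn6* (ENSMUSG00000004266, chr6:124720707-124738714, minus strand) encodes SHP-1. Its level was 11.85, 14.7 and 13.6 FPKM in Ptpn6+/mev replicates 1 to 3, and 17.5, 10.9 and 15.4 FPKM in wild-type replicates 1 to 3. Wild-type replicates 1 and 3 were above every Ptpn6+/mev library, and wild-type replicate 2 was below them all. The means were 13.4 ± 1.42 FPKM and 14.6 ± 3.38 FPKM (SD, n = 3 each), and the fitted difference was -0.19 on the log2 scale (SE 0.17, 95% confidence interval -0.57 to 0.19, FDR 0.715). As a fold this is 0.876, with an interval from 0.673 to 1.14.

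Leaving out wild-type replicate 2 moved the *Ptpn6* difference to -0.33 (SE 0.12, 95% confidence interval -0.60 to -0.05, unadjusted p = 0.0246, FDR 0.212). The remaining 2 wild-type libraries did not overlap with the 3 Ptpn6+/mev libraries. Other single omissions shrank the difference, to -0.05 without wild-type replicate 1 (FDR 0.953) and -0.11 without Ptpn6+/mev replicate 1 (FDR 0.933). The sum over splice forms does not check the genotype labels, because a splice-site change need not lower the amount of RNA. An antisense gene, Gm20531, shares 5873 bases with *Ptpn6*. The kit does not mark strand, so reads from either gene cannot be told apart there.

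*Ptpn11* (ENSMUSG00000043733, chr5:121130533-121191397, minus strand) encodes SHP-2, the close relative of SHP-1 that mostly carries signals from growth factor receptors forward. It was the most abundant of the 10 transcripts, at 41.31, 41.32 and 42.1 FPKM in Ptpn6+/mev and 38.6, 34.1 and 40.9 FPKM in wild-type replicates 1 to 3. In FPKM the groups did not overlap, although the gap between the highest wild-type and the lowest Ptpn6+/mev library was small. *Ptpn11* was the only such member, 1 of 10, and 20.4% of all tested genes had groups that did not overlap in FPKM. Its counts, not scaled for depth, were 2378, 2398 and 2539 in Ptpn6+/mev and 2334, 2098 and 2829 in wild-type libraries. Wild-type replicate 3, the highest by count, also had the largest total. Overlap on the scale used by the test was not examined. The difference was 0.07 on the log2 scale (SE 0.08, 95% confidence interval -0.11 to 0.25, FDR 0.808), so a fold above 1.19 or below 0.924 lay outside the interval.

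*Inpp5d* (ENSMUSG00000026288, chr1:87620312-87720507, plus strand) encodes SHIP, which removes a phosphate from the inositol lipid that recruits many signaling kinases to the membrane. It was at 3.97, 3.74 and 4.44 FPKM in Ptpn6+/mev and at 3.76, 2.37 and 3.86 FPKM in wild-type libraries. Only wild-type replicate 2 stood well below the others. The fitted difference of 0.26 (SE 0.20, FDR 0.661) fell to 0.08 (SE 0.13, FDR 0.794) without it.

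The balance between the 2 tyrosine phosphatases was examined as the ratio of *Ptpn6* to *Ptpn11* FPKM within each library. The ratio was 0.287, 0.355 and 0.323 in Ptpn6+/mev and 0.452, 0.319 and 0.378 in wild-type replicates 1 to 3, so the groups overlapped through wild-type replicate 2. Group means were 0.322 ± 0.034 and 0.383 ± 0.0669 (SD, n = 3 each). The log2 ratio differed by -0.24 (exact two-sided permutation test, p = 0.3, 0.6 after adjustment over 2 ratios), where 0.1 is the smallest p that 3 mice against 3 allow. It was -0.37 without wild-type replicate 2 and -0.12 without wild-type replicate 1.

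The second ratio sets *Ptpn6* against *Ptprc*, the gene of the leukocyte phosphatase CD45. *Ptprc* was at 1.13, 1.36 and 1.52 FPKM in Ptpn6+/mev and 2.28, 0.77 and 1.32 FPKM in wild-type libraries. The *Ptpn6* to *Ptprc* ratio was 10.5, 10.8 and 8.95 in Ptpn6+/mev and 7.66, 14.1 and 11.7 in wild-type libraries, and the wild-type range enclosed the other. The log2 ratio differed by -0.11 (exact two-sided permutation test, p = 0.8, adjusted 0.8), and by 0.08 without wild-type replicate 2. With *Laptm5*, another leukocyte transcript chosen after the data were seen, in place of *Ptprc*, the difference was -0.34 (exact permutation p = 0.3).

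**Figure D2:**
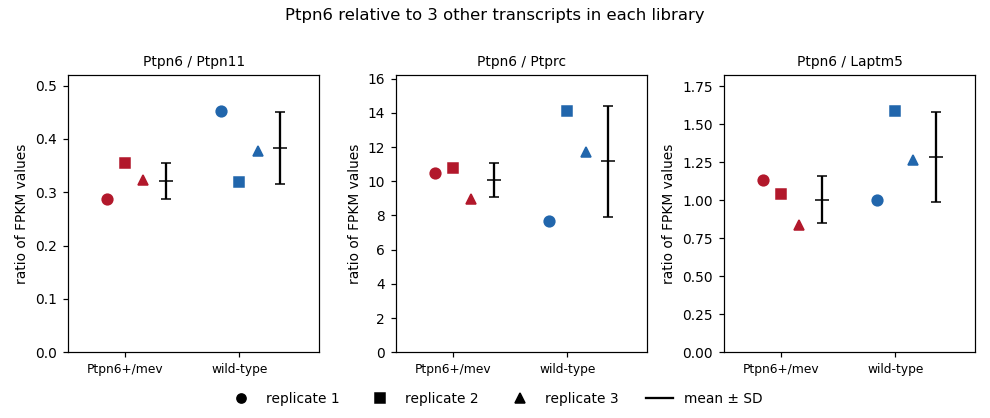
Ratio of *Ptpn6* FPKM to the FPKM of *Ptpn11*, *Ptprc* and *Laptm5* in each library (vertical axes from 0), with the mean ± SD of each group of 3. Wild-type replicate 2 has the lowest wild-type ratio to *Ptpn11*, 0.319, and the highest ratios to both leukocyte transcripts, 14.1 and 1.59.

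Among the receptors, *Sirpa* (ENSMUSG00000037902, chr2:129592835-129632228, plus strand) encodes the receptor by which CD47 on target cells restrains phagocytosis. It was at 27.2, 37.0 and 32.8 FPKM in Ptpn6+/mev and at 25.6, 18.6 and 29.1 FPKM in wild-type libraries. Ptpn6+/mev replicates 2 and 3 were above every wild-type library, and replicate 1 was within the wild-type range. *Sirpa* had the smallest p of the 10, with a difference of 0.27 (SE 0.15, 95% confidence interval -0.07 to 0.61, unadjusted p = 0.106, FDR 0.534). The difference was 0.15 without wild-type replicate 2 (FDR 0.547) and 0.40 without wild-type replicate 3 (unadjusted p = 0.025, FDR 0.277).

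*Fcgr2b* (ENSMUSG00000026656, chr1:170958617-170976547, minus strand) encodes the inhibitory receptor for IgG immune complexes, which binds SHIP. Its level was 35.1, 38.4 and 39.8 FPKM in Ptpn6+/mev and 37.8, 23.6 and 36.2 FPKM in wild-type libraries. Apart from wild-type replicate 2, all values lay between 35.1 and 39.8 FPKM. The difference was 0.14 (SE 0.12, FDR 0.719), and 0.03 without that library. The antisense gene Gm38204 shares 3175 bases with *Fcgr2b*.

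*Ceacam1* (ENSMUSG00000074272, chr7:25461707-25477603, minus strand) encodes a cell adhesion receptor that binds itself on neighboring cells. It reached 7.19, 9.72 and 9.24 FPKM in Ptpn6+/mev and 11.9, 7.45 and 10.1 FPKM in wild-type libraries. The order of libraries resembled that of *Ptpn6*, with wild-type replicates 1 and 3 on top, and here Ptpn6+/mev replicate 1 was the lowest. The difference was -0.09 (SE 0.16, FDR 0.882), -0.19 without wild-type replicate 2 and 0.02 without Ptpn6+/mev replicate 1. Its counts were fractional, which can occur when reads are divided between similar genes or transcripts, and the whole gene lies within the antisense gene 4732471J01Rik.

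*Lilrb4a* encodes gp49B, a myeloid receptor with extracellular matrix ligands. The row that holds nearly all its counts, ENSMUSG00000062593, is named Gm49339 in GENCODE M21 and runs across chr10:51480612-51496613 on the plus strand. It covers both *Lilr4b* and the *Lilrb4a* gene of that annotation, ENSMUSG00000112148 (chr10:51490956-51496611). The row of ENSMUSG00000112148 had a count of 2.48 in wild-type replicate 3 and 0 in the other libraries, and was below the low-count filter. How the counting divided reads between these overlapping genes is not known, and the *Lilrb4a* values are uncertain.

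In the tested *Lilrb4a* row the levels were 4.51, 6.79 and 7.78 FPKM in Ptpn6+/mev and 7.70, 1.79 and 6.71 FPKM in wild-type libraries. Wild-type replicate 2 was at 0.248 of the mean of the other 2 wild-type libraries, the lowest such ratio among the 10 transcripts. The difference of 0.19 (SE 0.45, 95% confidence interval -0.86 to 1.23, FDR 0.918) changed sign without it, to -0.20 (SE 0.23, FDR 0.698).

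*Pirb* (ENSMUSG00000058818, chr7:3711409-3720391, minus strand) encodes paired immunoglobulin-like receptor B, which binds MHC class I. Its level was 1.54, 1.81 and 2.50 FPKM in Ptpn6+/mev and 2.02, 1.13 and 1.82 FPKM in wild-type libraries, and the groups overlapped. Counts were fractional and lay between 47.6 and 103 per library. *Pirb* has close relatives in its gene family, so its values are uncertain. The difference was 0.18 (SE 0.27, FDR 0.859) and 0.006 without wild-type replicate 2.

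*Cd300a* (ENSMUSG00000034652, chr11:114890041-114904654, plus strand) encodes a receptor for lipids exposed by dying cells. It was at 0.84, 1.35 and 1.68 FPKM in Ptpn6+/mev and at 1.35, 0.57 and 1.25 FPKM in wild-type libraries. The lowest library of each group, Ptpn6+/mev replicate 1 and wild-type replicate 2, carried 40 and 29 counts, and the other 4 carried 65 to 84. The difference was 0.22 (SE 0.36, FDR 0.870) with all libraries and -0.04 without wild-type replicate 2.

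*Clec12a* (ENSMUSG00000053063, chr6:129342691-129365303, plus strand) encodes a myeloid C-type lectin that senses uric acid crystals from dead cells. It was the rarest, at 0.19, 0.81 and 0.92 FPKM in Ptpn6+/mev and 0.33, 0.42 and 0.42 FPKM in wild-type libraries. The counts behind these values were 5, 21 and 21 against 9, 6 and 13. Ptpn6+/mev replicates 2 and 3 were above every wild-type library and replicate 1 was below them all. The difference of 0.80 (SE 0.55, 95% confidence interval -0.47 to 2.06, FDR 0.634) was the largest of the 10 in this fit and the least precise. With limma on log2(FPKM + 1) it was 0.21, smaller than that of *Sirpa* (0.40).

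**Figure D3:**
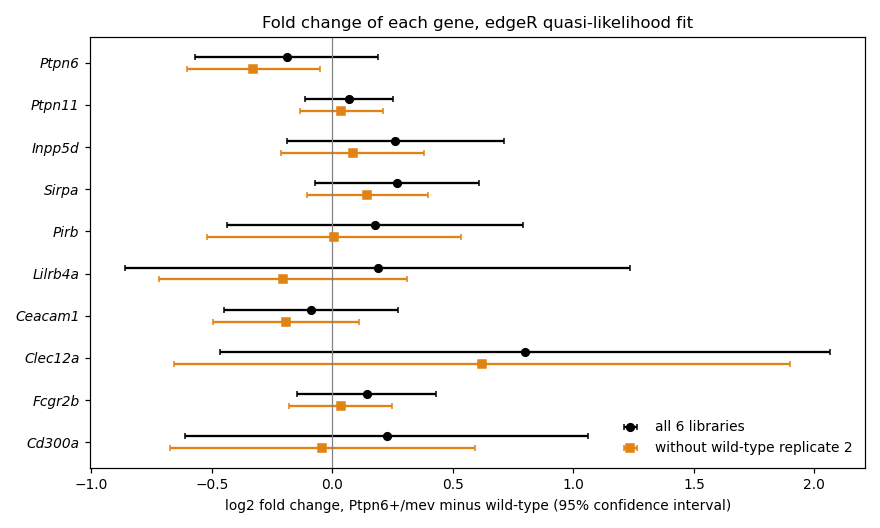
Log2 fold change of each transcript (Ptpn6+/mev minus wild-type, horizontal axis) with its 95% confidence interval from edgeR's quasi-likelihood fit, for all 6 libraries (black circles) and without wild-type replicate 2 (orange squares). Every black interval includes 0, and without that library the interval of *Ptpn6*, -0.60 to -0.05, lies below 0.

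Ordered by mean FPKM over the 6 libraries, the transcripts were *Ptpn11* at 39.7, *Fcgr2b* at 35.2, *Sirpa* at 28.4, *Ptpn6* at 13.98, *Ceacam1* at 9.26 and *Lilrb4a* at 5.88. Below them came *Inpp5d* at 3.69, *Pirb* at 1.80, *Cd300a* at 1.17 and *Clec12a* at 0.515. Across libraries only *Sirpa* and *Ptpn6* were neighbors whose ranges did not overlap, while the ranges of the other neighbors overlapped. Within a library the order was steadier. Each transcript exceeded the next in 6 of 6 libraries, except *Lilrb4a*, which exceeded *Inpp5d* in 5 of 6.

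The transcripts also varied between mice of 1 genotype. In wild-type replicate 2, 8 of the 10 had their lowest value of the 6 libraries, whereas 42.7% of all tested genes did. The exceptions were *Ceacam1* and *Clec12a*. Relative to the other 2 wild-type libraries, the median ratio of the 10 was 0.649 and 9 were below 1, while the median of all tested genes was 0.909. Among Ptpn6+/mev kidneys replicate 1 was low, with a median ratio of 0.770 to the other 2 and 10 of 10 below 1, against a median of 0.987 over all tested genes. In bulk tissue, fewer cells of a type and less RNA per cell cannot be told apart.

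**Figure D4:**
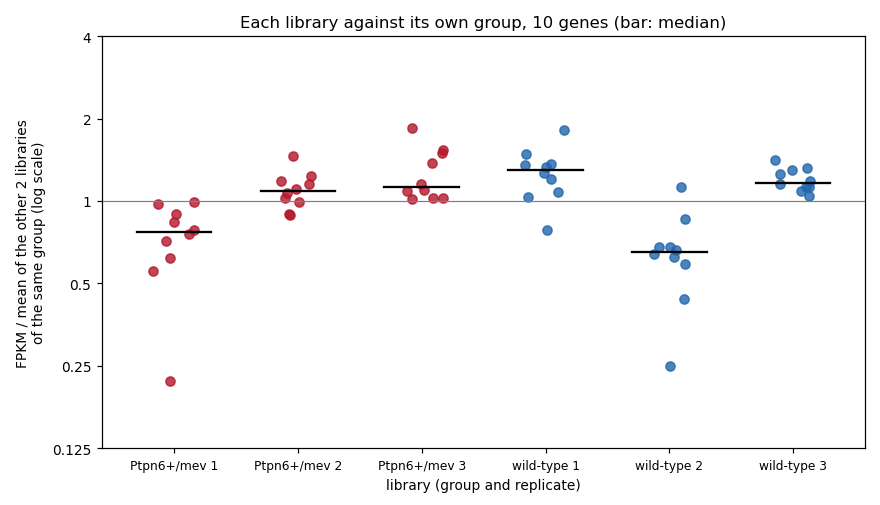
FPKM of each transcript in 1 library divided by its mean in the other 2 libraries of the same group (log scale), with 10 points per library and a bar at the median. The points of Ptpn6+/mev replicate 1 (median 0.770) and wild-type replicate 2 (median 0.649) lie mostly or wholly below 1, and the medians of the other 4 libraries lie above 1.

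Which members overlapped in FPKM changed when Ptpn6+/mev replicate 1 or wild-type replicate 2 was left out. Fewer libraries also leave less room for overlap. Over all tested genes the share without overlap was 20.4% with 6 libraries, and 26.9% to 35.4% with any 1 left out. Without Ptpn6+/mev replicate 1, *Ptpn11*, *Sirpa*, *Clec12a* and *Fcgr2b* were higher in both remaining Ptpn6+/mev libraries than in all wild-type libraries, 4 of 10 against 28.7% of all tested genes. *Clec12a* then differed by 1.21 (unadjusted p = 0.0192, FDR 0.458 from edgeR). Without wild-type replicate 2, the 3 members that did not overlap were *Ptpn11*, which was higher in Ptpn6+/mev, and *Ptpn6* and *Ceacam1*, which were lower, against 35.4% of all tested genes.

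Marker genes of the cell types in the kidney were read beside these values. Of 18 leukocyte, macrophage and neutrophil markers, 13 were tested, and 0 passed an FDR under 0.05 or an unadjusted p under 0.05. Their summed level was 197, 347 and 355 FPKM in Ptpn6+/mev and 315, 177 and 268 FPKM in wild-type libraries, lowest in the same library of each group as the median of the 10 transcripts. *Lyz2*, the lysozyme of macrophages, was at 72.3, 145 and 166 FPKM in Ptpn6+/mev and 130, 49.3 and 96.3 FPKM in wild-type libraries. The integrin *Itgam* was at 2.75 FPKM in wild-type replicate 2 and at 5.45 to 7.31 FPKM elsewhere. *Cd14*, an endotoxin co-receptor, had its highest level, 60.2 FPKM, in wild-type replicate 2. *Ly6g*, *Cd79a*, *Cd3e* and *Nkg7*, which define neutrophils, B cells, T cells and cytotoxic cells, were too low to test.

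Endothelial, fibroblast and podocyte markers were low in wild-type replicate 2 as well. All 8 tested markers had their lowest value there, with a median ratio of 0.307 to the other wild-type libraries, and their sum was 80.0 FPKM against 182 to 210 FPKM in the other 5 libraries. The adhesion molecule *Pecam1*, which itself bears ITIMs, was at 13.0 FPKM there and at 39.3 to 49.2 FPKM in the others. The collagen gene *Col1a1* was at 7.26 FPKM there and at 23.6 to 46.8 FPKM in the others. The endothelial *Emcn* differed by 0.24 (FDR 0.481).

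Tubule markers went both ways in wild-type replicate 2, with ratios from 0.568 to 3.10 and a median of 0.997. The collecting duct channel *Aqp2* (3.10) and the thick limb transporter *Slc12a1* (2.74) were high there, and the proximal *Slc34a1* (0.568) and *Lrp2* (0.660) were low. The markers identify the tissue as kidney, with *Umod* of the thick ascending limb at 1628 to 2556 FPKM and the phosphate transporter gene *Slc34a1* at 176 to 313 FPKM. Of 9 tested tubule markers, 0 passed an FDR under 0.05, and 4 were lower in Ptpn6+/mev at an unadjusted p under 0.05. The organic anion transporter *Slc22a6* differed by -1.11 (FDR 0.0774) and the endocytic receptor *Cubn* by -0.84 (FDR 0.131). Both were called at an FDR under 0.05 by DESeq2 and by the exact test of edgeR. Without wild-type replicate 2, 3 tubule markers passed an FDR under 0.05 and all were lower in Ptpn6+/mev: *Slc22a6* (-0.98, FDR 0.0288), *Lrp2* (-0.57, FDR 0.0392) and *Cubn* (-0.88, FDR 0.0486). Whether cell content or injury accounts for the levels of the 10 transcripts was not tested.

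Of 7 tubular injury markers, 0 passed an FDR under 0.05, 2 were higher and 1 was lower at an unadjusted p under 0.05. The adhesion molecule *Vcam1* differed by 1.05 (FDR 0.188, and under 0.05 in the exact test and DESeq2) and *Havcr1*, the gene of kidney injury molecule, by 0.27 (FDR 0.325). *Spp1*, osteopontin, differed by -0.38 (FDR 0.331) at 20881 to 32920 FPKM, and *Clu*, clusterin, by 0.08 (FDR 0.879). In wild-type replicate 2 the injury markers also went both ways, with ratios from 0.511 for *Vcam1* to 2.03 for the keratin gene *Krt20* and a median of 1.07. Without that library *Krt20* alone of this list passed an FDR under 0.05, with a difference of 0.65 (FDR 0.0289) against 0.16 with all libraries.

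**Figure D5:**
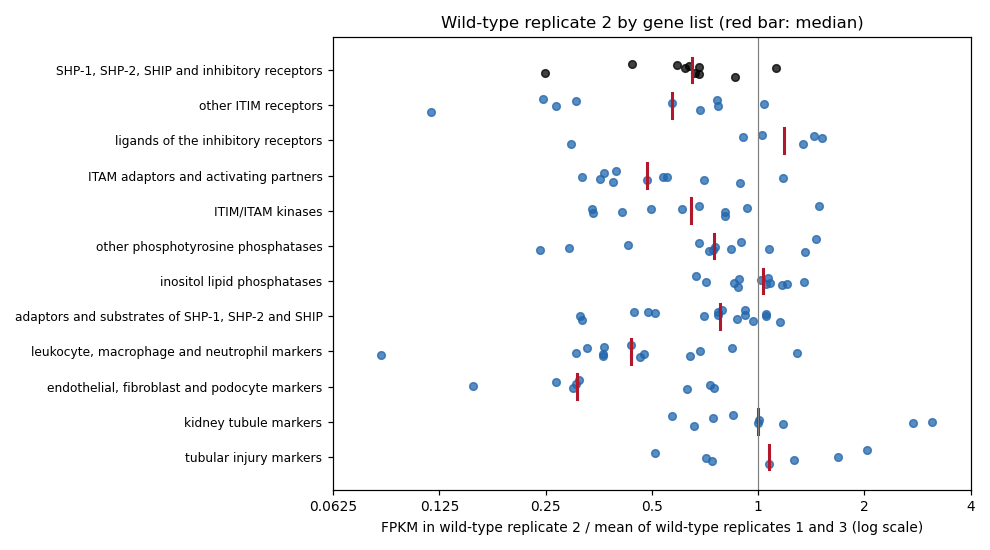
FPKM in wild-type replicate 2 divided by the mean of wild-type replicates 1 and 3 (log scale) for each tested gene, by gene list, with a red bar at the median. The SHP-1, SHP-2, SHIP and receptor transcripts have a median below 1, as do leukocyte (0.436) and endothelial, fibroblast and podocyte markers (0.307), while tubule markers have a median of 0.997 and range from 0.568 to 3.10.

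Other genes of the pathway were followed in 7 lists, and 0 of their genes were called at an FDR under 0.05, whether by the quasi-likelihood test, the exact test or DESeq2. Of all tested genes these called 18, 390 and 388. Of 20 further ITIM receptors, 19 had a row and 9 were tested, with a median log2 fold change of 0.18, and of -0.11 without wild-type replicate 2. *Cd33*, a sialic acid-binding receptor, was at 0.38, 0.25 and 0.77 FPKM in Ptpn6+/mev and 1.12, 0.68 and 0.65 FPKM in wild-type libraries, a difference of -0.77 (unadjusted p = 0.0291, FDR 0.331). The mast cell receptor *Milr1* was at 1.38 to 2.51 FPKM in Ptpn6+/mev and at 0.70 to 1.24 FPKM in wild-type, and the groups did not overlap (difference 0.71, FDR 0.50). *Pecam1* and the B-cell receptor *Cd72* were the most abundant, and differed by 0.18 (FDR 0.912) and -0.22 (FDR 0.848). Without wild-type replicate 2 the *Pecam1* difference was -0.21 (unadjusted p = 0.0463, FDR 0.281).

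Ligands of the inhibitory receptors were represented by 6 genes, of which 3 were lower in Ptpn6+/mev at an unadjusted p under 0.05. All 3 belong to MHC class I, the ligand of PIR-B. *B2m*, the shared light chain, was at 398, 388 and 449 FPKM in Ptpn6+/mev and 573, 735 and 450 FPKM in wild-type libraries. Its groups did not overlap, with the lowest wild-type library just above the highest Ptpn6+/mev library (difference -0.59, SE 0.19, FDR 0.255). The heavy chain genes *H2-D1* and *H2-K1* differed by -0.52 (FDR 0.299) and -0.57 (FDR 0.390), their groups overlapped, and their counts were fractional. All 3 were highest in wild-type replicate 2. In FPKM, 6 of the 7 receptor transcripts, all but *Clec12a*, were there below the mean of the other wild-type libraries. By counts *Clec12a* was low there too, at 6 against 9 and 13 in wild-type replicates 1 and 3. Without that library, the differences were -0.34, -0.31 and -0.28 for *B2m*, *H2-D1* and *H2-K1*. *Cd47*, the ligand of SIRPA, went the other way, at 56.5 to 68.0 FPKM in Ptpn6+/mev and 48.9 to 50.9 FPKM in wild-type libraries, without overlap. Its difference was 0.26 (unadjusted p = 0.0628, FDR 0.437), and 0.38 without wild-type replicate 2 (unadjusted p = 0.0035, FDR 0.091).

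ITAM adaptors and activating partners, which oppose the inhibitory receptors, gave 11 tested genes of 12, with 0 at an unadjusted p under 0.05. All 11 differences were above 0 (median 0.31), as were 49.5% of those of all tested genes. *Tyrobp*, the adaptor DAP12, was at 25.8, 41.9 and 46.8 FPKM in Ptpn6+/mev and 46.9, 16.5 and 38.5 FPKM in wild-type libraries. *Fcer1g*, the common Fc receptor chain, was at 18.9, 30.1 and 28.7 against 24.8, 9.29 and 22.0 FPKM. Both were lowest in wild-type replicate 2 and next lowest in Ptpn6+/mev replicate 1. The activating IgG receptor *Fcgr3* differed by 0.46 (FDR 0.550) and the activating CD300 family member *Cd300ld* by 0.70 (FDR 0.583). Without wild-type replicate 2 the median of the list was 0.12, and *Tyrobp* (-0.19), *Pira2* (-0.10) and *Trem2* (-0.011) were below 0.

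The kinases that phosphorylate ITIMs and ITAMs or bind them gave 10 tested genes, with 0 at an unadjusted p under 0.05 and a median difference of 0.10. The most abundant were *Csk*, which restrains Src-family kinases, and *Src* itself. *Src* was at 26.1, 25.4 and 29.0 FPKM in Ptpn6+/mev and 21.71, 21.64 and 24.97 FPKM in wild-type libraries, without overlap (difference 0.17, FDR 0.567). *Lyn*, the kinase best known for phosphorylating ITIMs, differed by 0.16 (FDR 0.654) and *Csk* by 0.21 (FDR 0.686).

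Among 12 other phosphotyrosine phosphatases, 1 was higher at an unadjusted p under 0.05. *Ptpn22*, a lymphoid phosphatase, was at 1.56, 1.40 and 1.69 FPKM in Ptpn6+/mev and 1.01, 0.79 and 0.88 FPKM in wild-type libraries, so the groups were well apart (difference 0.72, SE 0.24, FDR 0.266). The widely expressed *Ptpra* and *Ptpn1* differed by 0.12 (FDR 0.739) and 0.10 (FDR 0.811), and *Ptpre* by 0.30 (FDR 0.642). Inositol lipid phosphatases also numbered 12. *Inpp4b* was at 0.56 to 1.12 FPKM in Ptpn6+/mev and at 0.28 to 0.51 FPKM in wild-type (difference 0.97, FDR 0.306). *Inpp5a* was at 25.2 to 27.1 and at 27.7 to 31.1 FPKM (difference -0.26, FDR 0.328), again without overlap. *Inppl1*, which encodes the relative of SHIP found outside blood cells, was at 20.3 to 24.2 FPKM in all libraries (difference 0.02, FDR 0.954).

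Adaptors and substrates of the phosphatases gave 16 tested genes of 18, with a median difference of 0.017 and 0 at an unadjusted p under 0.05. *Irak1* and *Shc1*, the most abundant, differed by -0.04 each (FDR 0.918 and 0.912). The insulin receptor substrate *Irs1* differed by 0.33 (FDR 0.574) and the docking protein *Dok1* by 0.26 (FDR 0.740). *Gab2* of this list and *Mpig6b* of the ITIM receptors were not analysed here. The lists together held 112 tested genes, counted once, of which 5 were higher and 10 were lower at an unadjusted p under 0.05. These 15 are 13.4% of the 112, close to the 12.2% of all tested genes.

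The genes most like *Ptpn6* were sought among 11852 tested genes with a mean of at least 1 FPKM, by Pearson correlation of log2(FPKM + 1) over the 6 libraries. They were *Trmo* (r = 0.995), *Card6* (r = 0.995), *Cxcl12* (r = 0.988), *Fam212a* (r = 0.988) and *Kbtbd4* (r = 0.987). *Cxcl12*, a chemokine of stromal cells, was at 19.7, 26.3 and 24.0 FPKM in Ptpn6+/mev and 43.5, 14.9 and 31.5 FPKM in wild-type libraries. The genes most like *Pirb* were *Pald1* (r = 0.997), 6030419C18Rik (r = 0.992), *Ppp1r26* (r = 0.992), *Unc119* (r = 0.989) and *Wdsub1* (r = 0.988). The points share 6 libraries, and with so many genes compared values this close to 1 are given as a description only.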

How the data were processed

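RNA of 6 kidneys was measured. Per the labels and methods, the authors removed low-quality reads, aligned with TopHat to GRCm38.p5 and evaluated expression with Cufflinks. The TopHat version is 2.0.3.12 in the submitters' processing notes, and the study's methods name a different one. The notes also list RSEM and Bowtie2. The table the authors deposited holds an expected count and an FPKM value per gene and library; the tool behind the counts is not given in the sources used here. Counts were rounded, since 1744 of 21367 rows had fractional values. Totals were 10271590 to 12361745 per library, and depth limits mainly *Clec12a*.

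The groups were compared with the quasi-likelihood F-test of edgeR 4.0.16 (R 4.3.3) after TMM scaling and filterByExpr, with Benjamini-Hochberg adjustment over 13036 genes. The standard error is the absolute log2 fold change divided by the root of F. Ratios were tested with SciPy 1.17.1 and plotted with matplotlib 3.10.9. Alternatives were DESeq2 1.42.0 and its size factors, upper quartile scaling, the exact test, limma 3.58.1 on log2(FPKM + 1) or log2(FPKM + 0.1), no filter, at least 10 counts in every library, replicate number as a block, and each library left out in turn (13036 genes kept). Added later were limma-voom with sample weights, *Laptm5* in place of *Ptprc*, and the gene lists without wild-type replicate 2. The tests were tried on simulated data first. Libraries of 1 group differed by more than sampling noise (chi-square per degree of freedom 6.27 to 43.3).

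The members and gene lists were chosen with earlier results of these data known. Named from each list were genes at an FDR under 0.05, the 2 with the lowest p and the 2 with the highest FPKM and, by correlation, the 5 most like *Ptpn6* and *Pirb*. Markers named as too low to test, *Cd47*, *Aqp2*, *Slc12a1*, *Lrp2* and *Krt20* were chosen after their values were seen, and some genes of the lists are not reported here by name. For a symbol with several rows, the row with most counts was used for the lists. Sequences come from GENCODE M21 transcripts and the study's primer table.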

Additional observations from a re-analysis of the deposited data

How the results depend on the processing

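The count of members at an FDR under 0.05 was 0 in every alternative. The count over all genes was 18 and became 388 with DESeq2, 390 with the exact test, 52 without a filter, 1 with the replicate number as a block and 492 with limma-voom sample weights (added after seeing the data), where wild-type replicate 2 had a weight of 0.236. Leaving out 1 library gave 1 to 231, and left 1 to 4 of 10 members without overlap, against 26.9% to 35.4% of all tested genes. The *Ptpn6* difference stayed below 0, from -0.33 to -0.05 over leave-one-out fits, and was -0.18 under the block (FDR 0.853). Same-numbered libraries did not deviate together (correlations -0.18 to -0.13), so the numbers were not taken to pair mice, and the block changed no call of a member. The *Ptpn6* to *Ptpn11* log2 ratio differed by -0.37 to -0.12 in the unpaired test with 1 library left out. Its paired differences averaged -0.24 (exact p = 0.5, the smallest possible being 0.25).

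Signs turned for *Lilrb4a* without wild-type replicate 2 (-0.20) and with sample weights (-0.072), for *Cd300a* without wild-type replicate 2 (-0.042) or Ptpn6+/mev replicate 3 (-0.0089), for *Pirb* without Ptpn6+/mev replicate 3 (-0.036), for *Ceacam1* without Ptpn6+/mev replicate 1 (0.024), and for the *Ptpn6* to *Ptprc* ratio without wild-type replicate 2 (0.085). Their leave-one-out ranges were -0.20 to 0.52 for *Lilrb4a*, -0.042 to 0.46 for *Cd300a*, -0.036 to 0.33 for *Pirb*, -0.19 to 0.024 for *Ceacam1* and -0.36 to 0.085 for the ratio. The cause was not tested. The other 193 of 214 alternatives kept direction, call and, for counts, a like number.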
